A study of Mus musculus with 18 samples.

Results

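The mouse mitochondrial genome carries 37 genes, and the 37 genes whose symbol starts with mt- in the deposited ovary data are described here, out of 55416 genes listed. They comprise 13 protein genes, 2 ribosomal RNA (rRNA) genes and 22 transfer RNA (tRNA) genes, and the protein genes and rRNAs are kept apart throughout. A total of 33 members passed the filter on low counts, namely the 13 protein genes, both rRNAs and 18 tRNAs, while mt-Tf, mt-Th, mt-Tl2 and mt-Tt had too few counts to be tested. The 18 libraries each came from the ovaries of 1 female Balb/c mouse, with 6 mice in each of 3 groups. OC+SM mice were 40 weeks old and were dosed orally with the herbal decoction Samul-tang (2.5 g/kg). OC mice were 40 weeks old and received distilled water, and YC mice were 8 weeks old and received distilled water. Dosing ran 5 times a week for 4 weeks, after which mice of all 3 groups were superovulated with pregnant mare serum gonadotropin (PMSG, 5 IU) followed after 48 hours by human chorionic gonadotropin (hCG, 5 IU). Ovaries were collected 16 hours after hCG, so every value describes a stimulated, post-ovulatory ovary. OC+SM and OC mice were kept apart inside shared cages, and the sources used here do not say which mice shared one.

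Mitochondrial DNA is a small circle, present in many copies per cell, that is transcribed from both strands into long precursors. Enzymes cut the precursors at the tRNAs, which lie between most of the other genes, and most of the freed messengers receive short poly(A) tails. The messengers encode subunits of respiratory chain complexes I, III and IV and of ATP synthase (complex V), whose other subunits come from nuclear genes, and the 2 rRNAs form the cores of the mitochondrial ribosome. Oocytes hold exceptionally many copies of mitochondrial DNA, and steroid-producing luteal cells are rich in mitochondria, where the first step of steroid synthesis takes place. In GENCODE M21 (build GRCm38), mt-Nd6 and 8 tRNA genes lie on the minus strand of chromosome M and the other 28 members on the plus strand. Neighbours overlap in places: mt-Atp8 and mt-Atp6 by 43 bases and mt-Nd4l and mt-Nd4 by 7 bases on the same strand, and mt-Nd5 and mt-Nd6 by 14 bases on opposite strands. The deposited length of all 37 members equals that annotation.

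The assay was 3' tag sequencing, which starts from an oligo(dT) primer, so levels are given as CPM, the counts of a gene relative to the library total scaled by TMM factors. A CPM value says how often a gene was tagged, not how long its transcript is. Each OC+SM library (14200718 to 20354251 counts) was deeper than every OC library (11612284 to 13428424 counts) and every YC library (9049194 to 14147392 counts). In composition the OC+SM libraries spread widely, with libraries 1, 2 and 3 the furthest from OC and YC. The gene with the most counts, ENSMUSG00000119584, which has no symbol in the tables used, took 10.2%, 8.24% and 6.2% of counts in OC+SM libraries 1, 2 and 3, against 12.0 to 14.4% in OC+SM libraries 4 to 6, 13.8 to 18.5% in OC and 12.6 to 16.0% in YC. For this gene OC+SM library 6, at 12.0%, also lay below every OC and YC library. Results are also given without OC+SM libraries 1, 2 and 3, a choice made after the data were seen. Within OC+SM these 3 also held the smallest rRNA shares, the lowest mt-Rnr1, mt-Rnr2 and mt-Nd2 levels and the highest ratios of mt-Rnr2 to mt-Rnr1. For those values a smaller difference without them was therefore fixed by the choice. Defining ovarian markers were present in every group: the 5 oocyte markers summed to 16.4 to 36.7 CPM in OC+SM, 18.6 to 31.4 CPM in OC and 58.6 to 96.8 CPM in YC. The 5 luteal markers summed to 14032 to 16528 CPM in OC+SM, 13510.5 to 15145 CPM in OC and 8791 to 12306 CPM in YC. The 5 granulosa markers summed to 426 to 1027 CPM in OC+SM, 585 to 960 CPM in OC and 801 to 1189.6 CPM in YC. The 2 oviduct markers stayed at or under 2.01 CPM in every library, and no list had a marker at 0 throughout a group. In bulk ovaries, fewer cells of a type and less RNA per cell cannot be told apart.

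Mitochondrial transcripts made up about the same part of every library, but in most OC+SM libraries the rRNAs had a smaller part and the protein genes a larger one than in YC. The 37 genes together held 10.1 ± 0.484% of counts in OC+SM, 9.98 ± 0.467% in OC and 9.92 ± 0.42% in YC (SD, n = 6 each), and the 3 groups overlapped. The protein genes held 8.44 ± 0.61% in OC+SM, 7.63 ± 0.535% in OC and 7.37 ± 0.539% in YC. The rRNAs held 1.64 ± 0.412% in OC+SM, 2.33 ± 0.196% in OC and 2.53 ± 0.266% in YC. The highest OC+SM library, at 2.17%, lay below the lowest YC library, at 2.24%, and above the lowest OC library, at 2.12%. The ratio of protein gene counts to rRNA counts was 5.46 ± 1.65 in OC+SM, 3.31 ± 0.43 in OC and 2.95 ± 0.466 in YC. It was 5.67, 6.93 and 7.8 in OC+SM libraries 1, 2 and 3 and 3.57, 4.15 and 4.65 in libraries 4, 5 and 6. Library 4 lay inside the OC range of 2.71 to 3.88. The tRNAs held at most 0.0328% of counts in any library.

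**Figure D1:**
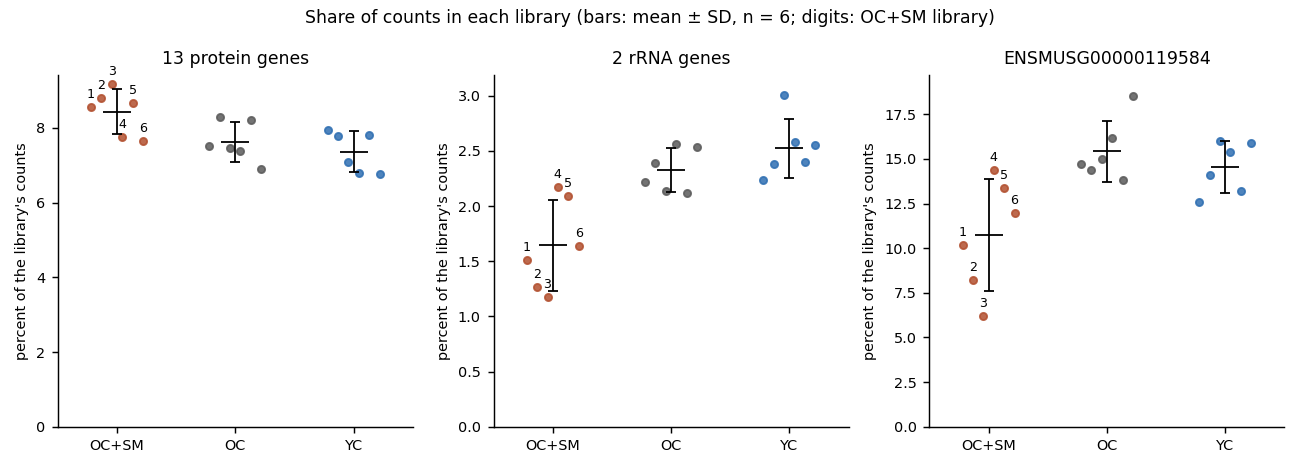
Percent of each library's counts (vertical axes, from 0) held by the 13 mitochondrial protein genes, the 2 mitochondrial rRNAs and ENSMUSG00000119584. Each point is 1 library, digits number the OC+SM libraries, and bars give the mean ± SD of 6 libraries; OC+SM libraries 1, 2 and 3 are the lowest 3 for both the rRNAs and ENSMUSG00000119584.

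The 3 comparisons were tested across all 16959 genes that passed the filter, and a gene was called at a Benjamini-Hochberg adjusted p under 0.05 in edgeR's quasi-likelihood test. Between OC+SM and YC, which differ in both age and treatment, 7 of 13 protein genes rose and 3 fell, beside 11.5% of all tested genes called higher and 10.9% called lower (22.4% in either direction). Both rRNAs and 1 of the 18 tested tRNAs were also called, the rRNAs lower and the tRNA higher. Between OC+SM and OC, 1 protein gene fell and none rose, beside 1.04% of all tested genes called (0.548% higher, 0.489% lower), and no rRNA or tRNA was called. At an unadjusted p under 0.05 that comparison had 9 of 13 protein genes, both rRNAs and 2 of 18 tRNAs, beside 16.9% of all tested genes. Between OC and YC, 1 protein gene rose and none fell, with no rRNA or tRNA called, beside 11.3% of all tested genes (5.25% higher, 6.03% lower). The median log2 fold change of the 13 protein genes was 0.24 for OC+SM minus YC, 0.13 for OC+SM minus OC and 0.10 for OC minus YC, while the median of all tested genes stayed within 0.01 of 0 in each. The comparisons share libraries, so their values for one gene are not independent of each other.

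**Figure D2:**
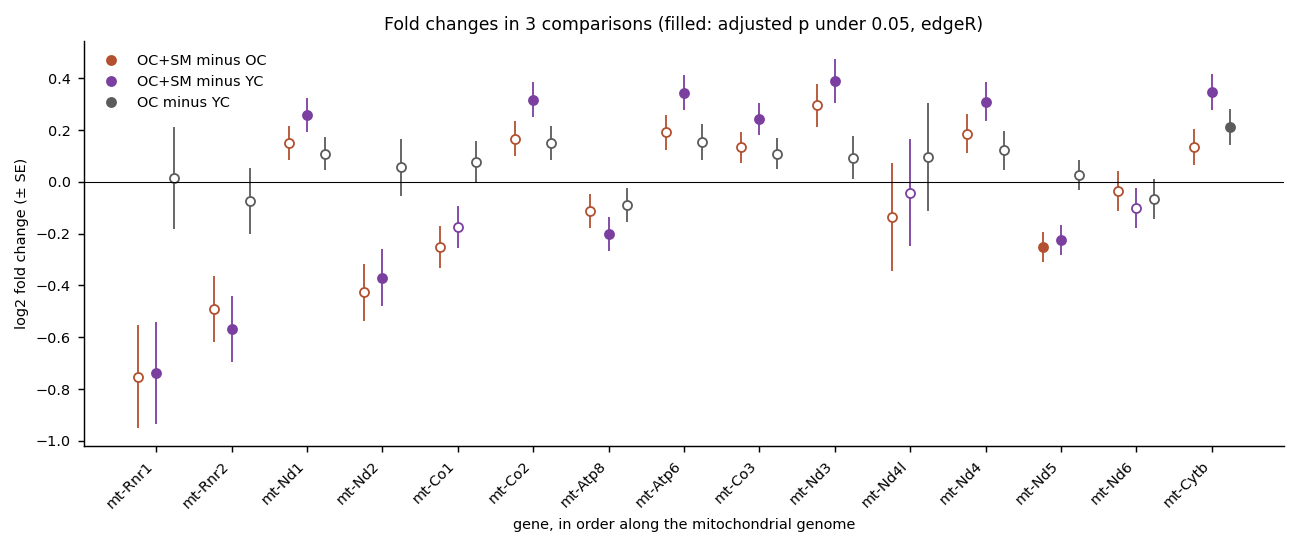
Log2 fold change ± SE (vertical axis) of the 2 rRNAs and 13 protein genes, in their order along the mitochondrial genome, for OC+SM minus OC, OC+SM minus YC and OC minus YC. Filled points passed an adjusted p of 0.05. For OC+SM minus YC these are the 2 rRNAs, below 0, and 7 protein genes above and 3 below 0. For OC+SM minus OC this is mt-Nd5 and for OC minus YC mt-Cytb.

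Among the rRNA and protein genes, the rRNAs had the largest fold changes in both OC+SM comparisons. The gene mt-Rnr1 encodes the rRNA of the small ribosomal subunit and lies at chrM:70-1024. Its level in the 6 OC+SM libraries was 3480.0, 2928, 2545, 6544, 5813 and 4615 CPM in the order of their numbers, against 6078 to 8342 CPM (median 7304) in OC and 6122 to 8684 CPM (median 7062) in YC. OC+SM libraries 1, 2, 3, 5 and 6 lay below every OC and YC library, and library 4 lay inside both ranges. The log2 fold change was -0.74 ± 0.20 (SE) for OC+SM minus YC (edgeR adjusted p = 0.0141) and -0.75 ± 0.20 for OC+SM minus OC, which was not called (adjusted p = 0.0728). With OC+SM libraries 1, 2 and 3 left out these values were -0.35 (edgeR adjusted p = 0.0866) and -0.36 (edgeR adjusted p = 0.283). Leaving out OC+SM library 4 or 5 instead gave a call for OC+SM minus OC, at -0.91 (edgeR adjusted p = 0.0162) and -0.85 (edgeR adjusted p = 0.047).

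The large-subunit rRNA gene, mt-Rnr2, lies at chrM:1094-2675, separated from mt-Rnr1 by the tRNA gene mt-Tv. It had 11144, 9288, 8489, 15651, 15514 and 11709 CPM in OC+SM libraries 1 to 6, against 15295 to 19096 CPM (median 16498) in OC and 16022 to 20312 CPM (median 17564) in YC. OC+SM libraries 1, 2, 3 and 6 were below all others, and no OC+SM library reached the YC range. Its log2 fold change was -0.57 ± 0.13 for OC+SM minus YC (adjusted p = 0.00403) and -0.49 ± 0.13 for OC+SM minus OC (adjusted p = 0.0643). With OC+SM libraries 1, 2 and 3 left out the first was still called, at -0.31 (edgeR adjusted p = 0.0403), and the second was -0.23 (edgeR adjusted p = 0.346). Without OC+SM library 4 or 5 the second was called, at -0.58 in each case (edgeR adjusted p = 0.0137 and 0.0279). DESeq2 called both rRNAs lower for OC+SM minus OC (adjusted p = 0.0109 for mt-Rnr1 and 0.00518 for mt-Rnr2), as did limma on deposited TPM values (0.0393 and 0.0419 at a pseudocount of 1).

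One precursor carries both rRNAs, and their ratio was also compared. The ratio of mt-Rnr2 to mt-Rnr1 counts was 3.2, 3.17 and 3.34 in OC+SM libraries 1, 2 and 3 and 2.39, 2.67 and 2.54 in libraries 4 to 6, against 2.19 to 2.53 in OC and 2.33 to 2.64 in YC. Of the 6 OC+SM libraries, 5 lay above every OC library and 4 above every YC library. The difference in mean log2 ratio was 0.30 for OC+SM minus OC (two-sided exact permutation test, p = 0.00433, adjusted p = 0.026 over 6 ratio tests, n = 6 each), and it was 0.13 without OC+SM libraries 1, 2 and 3 (exact permutation adjusted p = 0.201). Those 3 libraries held the highest OC+SM ratios, so a smaller difference was fixed by the choice. With 3 OC+SM libraries left, few regroupings are possible, which limits how small that p can be. Leaving out any one of OC libraries 1, 2, 3, 4 and 6 or of OC+SM libraries 1, 2, 3, 5 and 6 gave an exact permutation adjusted p of 0.0519, with differences of 0.26 to 0.34. It was 0.21 for OC+SM minus YC (exact permutation p = 0.0498, adjusted p = 0.0996; 0.26 and adjusted p = 0.0433 without OC+SM library 4) and -0.09 for OC minus YC (exact permutation p = 0.0671, adjusted p = 0.101).

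**Figure D3:**
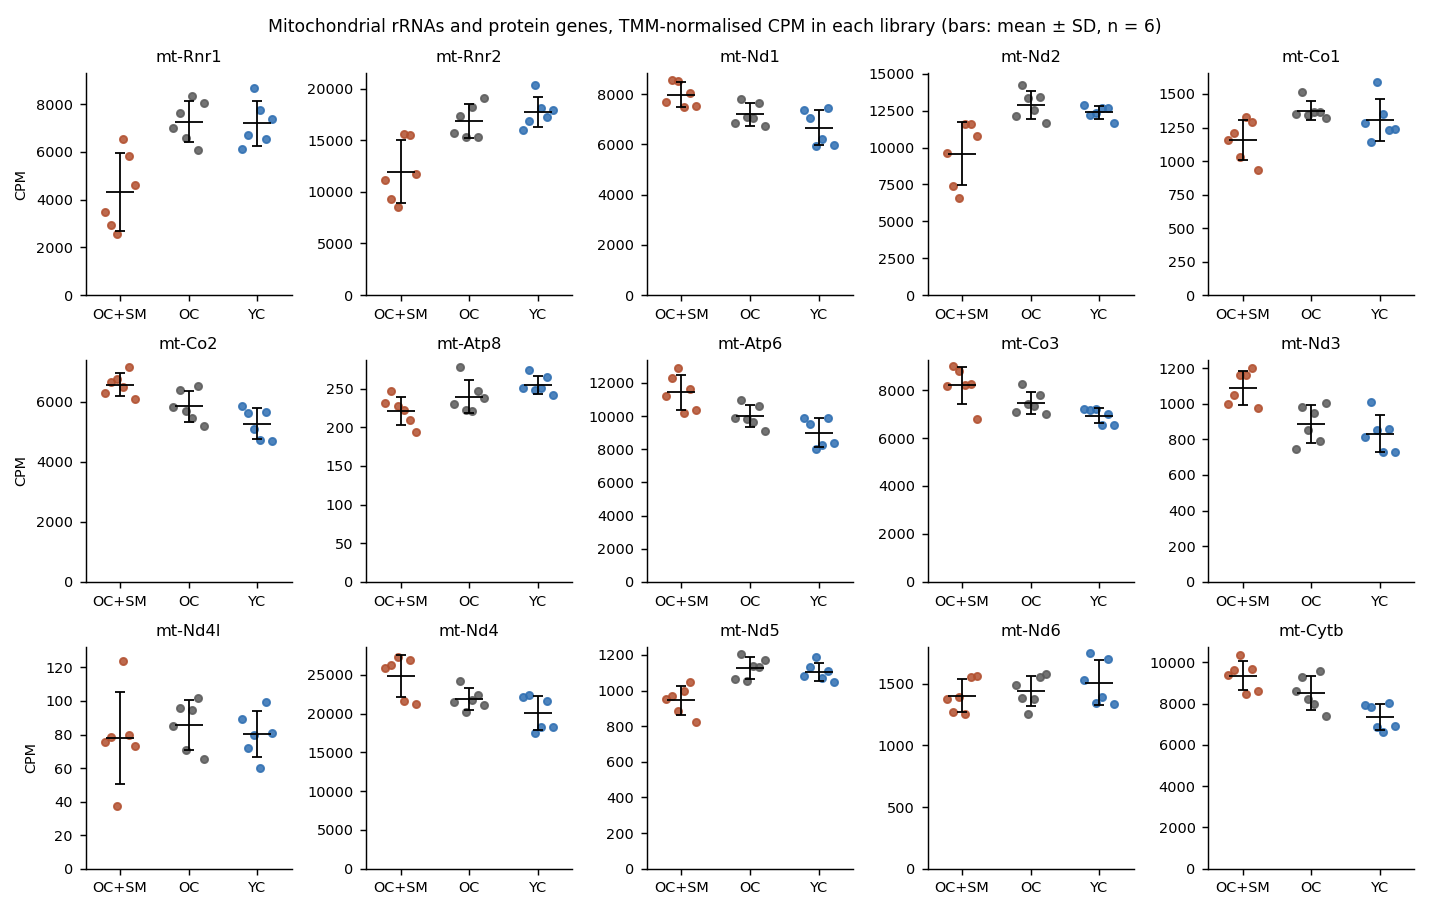
Level of each mitochondrial rRNA and protein gene in CPM (vertical axes, from 0) in every library, with the mean ± SD of the 6 libraries of each group. In mt-Nd2 all OC+SM libraries lie below OC and YC, in mt-Rnr1 library 4 (6544 CPM) and in mt-Rnr2 libraries 4 and 5 (15651 and 15514 CPM) lie inside the OC range, and in mt-Co2, mt-Atp6 and mt-Cytb all OC+SM libraries lie above all YC libraries.

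Between OC+SM and YC 3 protein genes fell, and 2 of these encode core membrane subunits of complex I, the NADH dehydrogenase that feeds electrons into the chain. The gene mt-Nd2 had 9598, 7376, 6606, 11599, 11569 and 10801 CPM in OC+SM libraries 1 to 6, against 11673 to 14270.1 CPM (median 12938) in OC and 11666 to 12874 CPM (median 12497) in YC. Every OC+SM library was below every OC and YC library, and the lowest 3 were libraries 1, 2 and 3. The log2 fold change was -0.37 ± 0.11 for OC+SM minus YC (edgeR adjusted p = 0.0197) and -0.43 ± 0.11 for OC+SM minus OC, which edgeR did not call (adjusted p = 0.0594) and DESeq2 did (adjusted p = 0.00834). With OC+SM libraries 1, 2 and 3 left out they were -0.13 (edgeR adjusted p = 0.223) and -0.19 (edgeR adjusted p = 0.276), and with no filter on low counts the first was -0.36 (edgeR adjusted p = 0.0712). Without OC+SM library 4 or 5 the second was called, at -0.49 in each case (edgeR adjusted p = 0.0198 and 0.0345). Set against mt-Nd1, the protein gene before it and a subunit of the same complex, mt-Nd2 had 1.22 ± 0.326 times as many counts in OC+SM, 1.79 ± 0.0533 times in OC and 1.87 ± 0.168 times in YC (SD, n = 6 each). The highest OC+SM ratio, 1.55, was below the lowest in OC, 1.73, and in YC, 1.7. For OC+SM minus YC mt-Nd2 was called lower and mt-Nd1 higher, so this ratio restates those values and adds no separate support.

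The gene mt-Nd5, another pump subunit of complex I, was the only protein gene called between OC+SM and OC. It had 954, 972, 883, 998, 1047 and 824 CPM in OC+SM libraries 1 to 6, against 1051 to 1206 CPM (median 1133) in OC and 1049.6 to 1190.0 CPM (median 1098) in YC. All 6 OC+SM libraries were below all OC and YC libraries, with little to spare in library 5. The log2 fold change was -0.25 ± 0.06 for OC+SM minus OC (edgeR adjusted p = 0.0335) and -0.23 ± 0.06 for OC+SM minus YC (edgeR adjusted p = 0.00767). The first call was lost without any one of OC+SM libraries 1 and 3 and OC libraries 2, 4, 5 and 6 (edgeR adjusted p from 0.0543 to 0.094) and when only the 12 libraries compared were fitted (0.0716), while the fold change stayed between -0.26 and -0.23. After removal of OC+SM libraries 1, 2 and 3 it was -0.24 for OC+SM minus OC (edgeR adjusted p = 0.213) and -0.21 for OC+SM minus YC (edgeR adjusted p = 0.0714).

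The third, mt-Atp8, encodes a small subunit of ATP synthase and lies at chrM:7766-7969, where its end overlaps mt-Atp6 on the same messenger. It had 194.0 to 246 CPM (median 224) in OC+SM, 222 to 279 CPM (median 234) in OC and 241 to 274 CPM (median 251) in YC, and all 3 groups overlapped. Its log2 fold change was -0.20 ± 0.07 for OC+SM minus YC (edgeR adjusted p = 0.027), -0.11 ± 0.07 for OC+SM minus OC (edgeR adjusted p = 0.389) and -0.09 ± 0.07 for OC minus YC (edgeR adjusted p = 0.44). The OC+SM minus YC call was lost without YC library 2 (0.0669), YC library 5 (0.0505) or OC+SM library 6 (0.052), and with no filter on low counts (0.0701). It held without OC+SM libraries 1, 2 and 3, at -0.29 (edgeR adjusted p = 0.0164).

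The 7 protein genes that rose between OC+SM and YC came from each of the 4 complexes that the mitochondrial genome helps to build. In complex V, mt-Atp6, which forms part of the proton channel of ATP synthase, had 10191 to 12888 CPM (median 11429) in OC+SM, 9120 to 10987 CPM (median 9862) in OC and 8036 to 9893 CPM (median 8951) in YC. Every OC+SM library was above every YC library, with OC in between and overlapping both. The log2 fold change was 0.35 ± 0.07 for OC+SM minus YC (edgeR adjusted p = 0.000919), 0.19 ± 0.07 for OC+SM minus OC (edgeR adjusted p = 0.146) and 0.15 ± 0.07 for OC minus YC (edgeR adjusted p = 0.166). Thus mt-Atp8 and mt-Atp6, read from one messenger, were called in opposite directions.

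In complex III, mt-Cytb encodes cytochrome b, the only subunit of that complex made in the mitochondrion. It had 8450.4 to 10365 CPM (median 9509) in OC+SM, 7395 to 9586 CPM (median 8424) in OC and 6613 to 8037 CPM (median 7359) in YC. The OC+SM libraries were all above the YC libraries, and OC overlapped both. Cytochrome b differed by 0.35 ± 0.07 (log2) for OC+SM minus YC (edgeR adjusted p = 0.000911) and 0.14 ± 0.07 for OC+SM minus OC (edgeR adjusted p = 0.329). It was 0.21 ± 0.07 for OC minus YC (edgeR adjusted p = 0.0481), the only mitochondrial call of that comparison, and this call lay close to the threshold. It was lost without any one of OC libraries 1, 2, 3 and 5, YC libraries 3, 4 and 6 and OC+SM libraries 1, 2 and 5 (edgeR adjusted p from 0.0507 to 0.127), without ENSMUSG00000119584 in the library sizes (0.0533) and with limma on deposited TPM (0.174 at a pseudocount of 1).

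In complex IV, cytochrome c oxidase, mt-Co2 encodes the subunit that takes electrons from cytochrome c. It had 6084 to 7139 CPM (median 6573) in OC+SM, 5204 to 6534 CPM (median 5754) in OC and 4692 to 5851 CPM (median 5359) in YC, with no OC+SM library inside the YC range. Its log2 fold change was 0.32 ± 0.07 for OC+SM minus YC (edgeR adjusted p = 0.00151), 0.17 ± 0.07 for OC+SM minus OC (0.198) and 0.15 ± 0.07 for OC minus YC (0.164). The structural core subunit gene mt-Co3 had 6789 to 9004 CPM in OC+SM, 7010.3 to 8235 CPM in OC and 6534 to 7217 CPM in YC, and OC+SM library 6 was inside the YC range. Its log2 fold change was 0.24 ± 0.06 for OC+SM minus YC (edgeR adjusted p = 0.00637), and 0.13 ± 0.06 for OC+SM minus OC and 0.11 ± 0.06 for OC minus YC were not called.

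In complex I, mt-Nd1, mt-Nd3 and mt-Nd4 rose between OC+SM and YC, in contrast to mt-Nd2 and mt-Nd5. The gene mt-Nd4, whose product is one of the proton-pumping subunits, was tagged most often of all members, with 21218 to 27337 CPM (median 26056) in OC+SM, 20137 to 24224 CPM (median 21619) in OC and 17559 to 22438 CPM (median 19974) in YC. Its log2 fold change was 0.31 ± 0.07 for OC+SM minus YC (edgeR adjusted p = 0.00464) and 0.19 ± 0.07 for OC+SM minus OC (edgeR adjusted p = 0.199). The gene mt-Nd1, for a subunit at the ubiquinone site, had 7484 to 8575 CPM in OC+SM, 6735 to 7831 CPM in OC and 5938 to 7438 CPM in YC, so that OC+SM and YC did not overlap (0.26 ± 0.07, edgeR adjusted p = 0.00597). The gene mt-Nd3, for a small membrane subunit, had 976 to 1198 CPM in OC+SM, 745 to 1006 CPM in OC and 728 to 1009 CPM in YC, with a log2 fold change of 0.39 ± 0.08 for OC+SM minus YC (edgeR adjusted p = 0.00178) and 0.30 ± 0.08 for OC+SM minus OC (edgeR adjusted p = 0.0734; DESeq2 called it at 0.037). Without OC+SM libraries 1, 2 and 3, mt-Co2, mt-Atp6, mt-Nd3 and mt-Cytb were still called higher than in YC, at 0.32, 0.26, 0.42 and 0.28, while mt-Nd1 (0.21, edgeR adjusted p = 0.0939), mt-Co3 (0.16, edgeR adjusted p = 0.144) and mt-Nd4 (0.21, edgeR adjusted p = 0.13) were not. In that fit 10.5% of all tested genes were called. Groups did not overlap for 6 of 13 protein genes between OC+SM and YC, 2 between OC+SM and OC and none between OC and YC, beside 9.5%, 1.53% and 7.38% of all tested genes.

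The genes that fell and those that rose were then compared in base composition, which played no part in choosing the members. This was done after their fold changes were known and is given as a description. Adenine was counted on each gene's own strand. Of the 3 protein genes called lower for OC+SM minus YC, it made up 36.9% of mt-Nd2, 34.3% of mt-Nd5 and 40.7% of mt-Atp8. It made up 29.8 to 34.8% (median 33.8%) of the 7 protein genes called higher, a range that includes mt-Nd5, and less (median 29.5%) of the 3 not called. The rRNAs, both called lower, held 37.8% (mt-Rnr1) and 38.2% (mt-Rnr2). A run of at least 6 adenines occurred in mt-Nd2, mt-Nd5 and mt-Rnr2 but not in mt-Atp8 or mt-Rnr1. It also occurred in 2 of the 7 higher genes and 1 of the 3 others. The 20 bases richest in adenine held 13 or 14 adenines in the lower protein genes, 15 and 16 in the rRNAs and 11 to 13 in the higher genes. An oligo(dT) primer can anneal inside a transcript at such a stretch as well as at its tail, and whether tags came from these stretches was not tested. The window of mt-Nd4, called higher and not shown, held 13 adenines with a longest run of 7, the same values as for mt-Nd5. As examples, the windows of the 5 lower genes are shown with those of the 3 higher genes with the smallest p. They are from GENCODE M21 (GRCm38), 5' to 3' on the plus strand, with adenines in capitals.
mt-Rnr1 (lower, chrM:725-744): AAAAgAAtcAAAcAtAAAAA
mt-Rnr2 (lower, chrM:1488-1507): AAAAAAAcAAcAAAAtcAAA
mt-Nd2 (lower, chrM:4040-4059): AtActAAtcAAcAAAAAAAA
mt-Nd5 (lower, chrM:12623-12642): ccAAAAcgAcAtcAAAAAAA
mt-Atp8 (lower, chrM:7891-7910): AAcAAccAtAAAAgtAAAAA
mt-Cytb (higher, chrM:14148-14167): AcAAAcAtAcgAAAAAcAcA
mt-Atp6 (higher, chrM:8076-8095): tAAActtAttAtcAAAcAAA
mt-Co2 (higher, chrM:7144-7163): AAtAttAAcAAcAAAActAA

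The window of mt-Nd2 ends in an unbroken run of 8 adenines, the longest run in any of the 15 genes, and lies 892 bases before the gene's end. That of mt-Rnr2 opens with 7 adenines and lies 1168 bases before the end. By contrast mt-Rnr1, with the most negative fold change for OC+SM minus YC, has no run of 6 or more, and mt-Nd4, which rose, has 2 such runs, so the run count alone did not separate the sets.

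**Figure D4:**
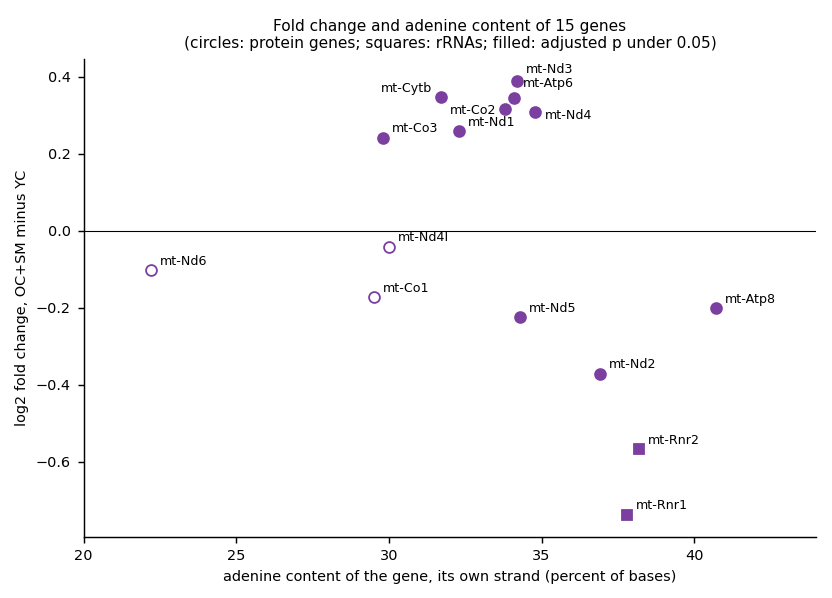
Log2 fold change for OC+SM minus YC (vertical axis) against the adenine content of each gene's own strand in percent (horizontal axis), for 13 protein genes (circles) and 2 rRNAs (squares). Filled symbols passed an adjusted p of 0.05. Both rRNAs and, among the protein genes, mt-Nd2 and mt-Atp8 have over 36% adenine and lie below 0. The protein gene mt-Nd5 lies below 0 at 34.3%.

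The true 3' ends are where the tail is added. In 3 of the 13 protein genes, mt-Co3, mt-Nd4 and mt-Cytb, the gene's length leaves 1 base over after whole codons, so that the gene ends in the T of a stop codon whose remaining adenines come from the poly(A) tail. All of these rose between OC+SM and YC, beside 7 of the 13 protein genes in all, and a link to the gene end was not tested. The annotated lengths of mt-Nd1, which rose, and mt-Nd2, which fell, are whole codons, but their last 2 bases overlap the tRNA genes mt-Ti and mt-Tw on the same strand, so the annotation does not show where those messengers end. The last 30 annotated bases are given because they show these ends, with the last whole or partial codon in capitals.
mt-Co3 (chrM:9361-9390): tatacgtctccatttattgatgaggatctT
mt-Nd4 (chrM:11515-11544): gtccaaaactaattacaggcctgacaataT
mt-Cytb (chrM:15259-15288): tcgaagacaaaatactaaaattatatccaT
mt-Nd1 (chrM:3678-3707): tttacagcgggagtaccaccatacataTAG
mt-Nd2 (chrM:4922-4951): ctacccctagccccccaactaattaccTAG

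Values of 3 members, mt-Co1, mt-Nd3 and mt-Nd4l, are uncertain, since a near-identical nuclear copy of each also holds many counts. In GRCm38, a nuclear stretch on chromosome 1 (chr1:24611535-24616197) and 2 other places hold 11 annotated genes that match 9 members at 95% identity or more, and RSEM divides a read that fits both. Of the bases of mt-Co1, 483 match Gm29216 with 1 substitution (A1066T, counted from the first base of mt-Co1). Nearly the whole of mt-Nd3 matches Gm28438, with 1 substitution (T3C, counted from the first base of mt-Nd3), and 294 of the 297 bases of mt-Nd4l match Gm10222 with none. The deposited tables gave Gm29216 on average 35692 counts per library and mt-Co1 17670.4, Gm10222 5140.6 and mt-Nd4l 1119.6, and Gm28438 8024 and mt-Nd3 13459. The other 8 copies averaged at most 43.7 counts.

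The gene mt-Co1 encodes the catalytic subunit of cytochrome c oxidase. It had 936 to 1328 CPM (median 1181) in OC+SM, 1318 to 1518 CPM (median 1356) in OC and 1140.1 to 1590 CPM (median 1260) in YC, and only OC+SM library 4 reached the OC range. The log2 fold change was -0.25 ± 0.08 for OC+SM minus OC (edgeR adjusted p = 0.109), -0.17 ± 0.08 for OC+SM minus YC (edgeR adjusted p = 0.13) and 0.08 ± 0.08 for OC minus YC (edgeR adjusted p = 0.624). Gm29216 differed by less than 0.01 for OC+SM minus OC (-0.001 ± 0.086). With the copies added to their members, mt-Co1 was -0.09 for OC+SM minus OC and -0.05 for OC minus YC, where the sign turned, and neither was called. Without OC+SM library 4 the OC+SM minus OC value was called, at -0.29 (edgeR adjusted p = 0.047).

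The gene mt-Nd4l, for a small subunit of complex I, had 37.7 to 124 CPM (median 77.0) in OC+SM, 65.6 to 102 CPM (median 89.8) in OC and up to 99.4 CPM (median 80.3) in YC. Its OC+SM libraries spanned both other groups, and it was not called in any comparison (edgeR adjusted p from 0.801 to 0.915). With OC+SM libraries 1, 2 and 3 left out its log2 fold change for OC+SM minus YC was 0.20, against -0.04 with them. It shares its messenger with mt-Nd4, whose levels were given above. For mt-Nd3, the call for OC+SM minus YC was kept in all alternatives, also with Gm28438 added to it.

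**Figure D5:**
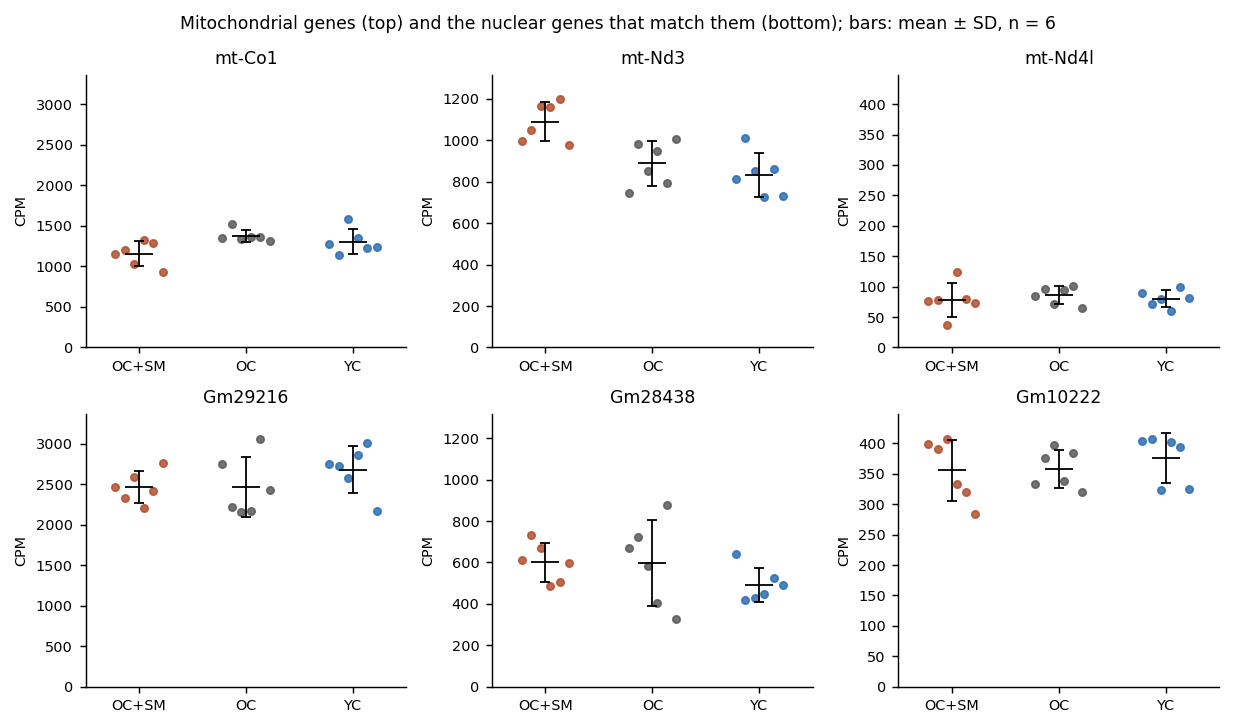
CPM (vertical axes, from 0, the same scale within each column) of 3 mitochondrial genes (top row) and of the nuclear genes that match them (bottom row) in every library, with the mean ± SD of 6 libraries. Gm29216 and Gm10222 lie above mt-Co1 and mt-Nd4l in all 3 groups, while Gm28438 averages below mt-Nd3.

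Only 1 protein gene, mt-Nd6, is encoded on the minus strand, opposite the end of mt-Nd5, and it supplies a membrane subunit of complex I. It had 1254 to 1568 CPM (median 1387) in OC+SM, 1258 to 1576 CPM (median 1438) in OC and 1333 to 1749.6 CPM (median 1462) in YC. The 3 groups overlapped throughout, and its log2 fold changes of -0.10 ± 0.08, -0.04 ± 0.08 and -0.07 ± 0.08 for OC+SM minus YC, OC+SM minus OC and OC minus YC were not called. The ratio of mt-Nd6 to mt-Nd5 counts ran from 1.26 to 1.9 (median 1.46) in OC+SM, from 1.15 to 1.4 (median 1.27) in OC and from 1.13 to 1.55 (median 1.35) in YC, and 4 of 6 OC+SM libraries lay above every OC library. The difference in mean log2 ratio was 0.22 for OC+SM minus OC (two-sided exact permutation test, p = 0.0476, adjusted p = 0.0996 over 6 ratio tests) and did not pass, while without OC+SM library 4 it was 0.27 (exact permutation adjusted p = 0.0433). No source used here states the strand setting of the counting, and reads of these 2 overlapping ends cannot be told apart. The uncertainty is not limited to the overlap. No plus-strand gene is annotated between the end of mt-Nd5 (13565) and the start of mt-Cytb (14145). The annotation therefore does not show where the mt-Nd5 messenger ends. Whether mt-Nd6 counts, and so this ratio, include reads of that messenger was not tested.

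Mature tRNAs are generally not polyadenylated, and the tRNA genes had low levels in this assay. Of 18 tested tRNAs, mt-Ts1 averaged 179.5 ± 23.2 CPM in OC+SM, 165.9 ± 54.2 CPM in OC and 173.6 ± 13.8 CPM in YC, and the other 17 averaged between 0.521 and 18.6 CPM in every group. The gene mt-Ts1, a serine tRNA, overlaps the end of mt-Co1 by 3 bases on the other strand, and without a stated strand setting the reads of the 2 genes there cannot be told apart. The next plus-strand gene, mt-Td, starts at 6942, beyond all of mt-Ts1, so the annotation does not show where the mt-Co1 messenger ends. Whether mt-Ts1 counts include reads of that messenger was not tested. No comparison called mt-Ts1. The glutamine tRNA gene mt-Tq was the only tRNA called: it had 16.1 to 23.6 CPM (median 18.3) in OC+SM, 10.9 to 24.9 CPM (median 17.3) in OC and 12.3 to 15.4 CPM (median 13.6) in YC. All OC+SM libraries were above all YC libraries. Its log2 fold change was 0.45 ± 0.14 for OC+SM minus YC (edgeR adjusted p = 0.0265), and the call was lost without YC library 1 (0.0535), YC library 3 (0.0553), OC+SM library 4 (0.0655) or OC+SM libraries 1, 2 and 3 together (0.0748). For OC minus YC it was 0.39 ± 0.15 and not called (edgeR adjusted p = 0.0869), but was called without OC library 5, at 0.50 (edgeR adjusted p = 0.0114), and by limma on TPM, at 0.28 (adjusted p = 0.0215 at a pseudocount of 1). Both mt-Ts1 and mt-Tq lie on the minus strand, and their sequences are shown as the most tagged and the only called tRNA, with no base marked.
mt-Ts1 (chrM:6870-6938): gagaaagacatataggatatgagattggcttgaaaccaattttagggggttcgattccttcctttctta
mt-Tq (chrM:3772-3842): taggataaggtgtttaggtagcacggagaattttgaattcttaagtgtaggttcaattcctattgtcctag

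The other tested tRNAs were mt-Tv, mt-Tl1, mt-Ti, mt-Tm, mt-Tw, mt-Ta, mt-Tn, mt-Tc, mt-Ty, mt-Td, mt-Tk, mt-Tg, mt-Tr, mt-Ts2, mt-Te and mt-Tp. Over all 18, log2 fold changes ran from -0.39 to 0.64 for OC+SM minus YC, from -0.66 to 0.83 for OC+SM minus OC and from -0.88 to 0.58 for OC minus YC. In the deposited TPM values, which divide by an effective length, tRNAs weigh far more. They held 11.8 ± 1.25% of TPM in OC+SM, 10.9 ± 0.827% in OC and 12.4 ± 1.24% in YC, although they held under 0.04% of counts, and mt-Ts1 alone held 8.24 ± 0.805% of TPM in OC+SM, 7.45 ± 0.681% in OC and 8.54 ± 0.966% in YC.

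As a share of all protein gene counts, mt-Nd2 held 11.6 ± 2.9% in OC+SM, 16.3 ± 0.594% in OC and 17.1 ± 1.08% in YC. It was 11.6%, 8.72% and 7.68% in OC+SM libraries 1, 2 and 3 and 14.7%, 13.1% and 14.2% in libraries 4, 5 and 6. All 6 OC+SM libraries lay below the lowest OC and YC libraries, at 15.8% in each. This share restates the mt-Nd2 level given above and adds no separate support. The OC+SM shares of mt-Nd5 (mean 1.14%, against 1.43% in OC and 1.53% in YC) and mt-Atp6 (13.8%, against 12.7% and 12.3%) did not overlap either group as well.

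Nuclear genes that work with the mitochondrial genome were read from lists chosen with earlier results of these data known. In the lists for the respiratory complexes, whose subunits join mitochondrial ones in all but complex II, calls ran in one direction in each comparison. Between OC+SM and YC, 35 of 37 complex I genes, 3 of 4 complex II genes, 8 of 9 complex III genes, 8 of 15 complex IV genes and 11 of 15 complex V genes rose and none fell, beside 11.5% of all tested genes called higher. Their median log2 fold changes were 0.25, 0.40, 0.35, 0.22 and 0.28, beside 0.002 for all tested genes. Those with the smallest p were Ndufs8 (0.46 ± 0.07), Ndufb7 (0.42 ± 0.07), Ndufb4 (0.50 ± 0.08) and Ndufb11 (0.37 ± 0.06) in complex I, Sdhb (0.48 ± 0.06), Sdha (0.39 ± 0.06) and Sdhc (0.35 ± 0.07) in complex II, and Uqcrq (0.40 ± 0.06), Uqcrb (0.39 ± 0.07), Uqcrc2 (0.33 ± 0.06) and Cyc1 (0.35 ± 0.07) in complex III. In complex IV they were Cox7b (0.48 ± 0.08), Cox7a2 (0.29 ± 0.07), Cox5a (0.34 ± 0.08) and Cox5b (0.23 ± 0.06), and in complex V Atp5c1 (0.38 ± 0.05), Atp5pb (0.39 ± 0.06), Atp5k (0.37 ± 0.06) and Atp5g1 (0.45 ± 0.08). Between OC+SM and YC all 5 oocyte markers, 2 of 5 granulosa markers (Foxl2 and Fshr), both smooth muscle markers (Myh11, -1.24 ± 0.10, and Acta2, -0.66 ± 0.11) and 1 of 2 theca markers (Insl3, -1.39 ± 0.16) fell, and 2 of 5 luteal markers, Cyp11a1 and Hsd3b1, rose. The part of these cell types in the mitochondrial values was not tested. With OC+SM libraries 1, 2 and 3 left out the counts were 20 of 37, 3 of 4, 6 of 9, 4 of 15 and 9 of 15, with 10.5% of all tested genes called.

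Between OC and YC, 16 of 37, 2 of 4, 2 of 9, 5 of 15 and 3 of 15 genes of complexes I to V rose and none fell, beside 5.25% of all tested genes called higher. Examples were Ndufb7 (0.31 ± 0.07) and Ndufs7 (0.30 ± 0.07) in complex I, Sdhb (0.35 ± 0.06) in complex II, Uqcrq (0.31 ± 0.06) in complex III, Cox8a (0.26 ± 0.06) in complex IV and Atp5c1 (0.23 ± 0.05) in complex V. In the same comparison all 5 oocyte markers, 3 of 5 granulosa markers (Amhr2, Foxl2 and Inha), both smooth muscle markers and the theca marker Insl3 fell, and the luteal markers Cyp11a1 and Hsd3b1 and 1 of 3 macrophage markers (C1qa) rose. Their part was likewise not tested. Between OC+SM and OC a single gene of these lists was called, Uqcrc2 of complex III (0.29 ± 0.06, edgeR adjusted p = 0.0273), beside 1.04% of all tested genes, and no marker of any cell type listed was. Uqcrc2 was not called when OC+SM libraries 1, 2 and 3 were left out.

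None of the genes that transcribe mitochondrial DNA was called in any comparison, beside 22.4% of all tested genes for OC+SM minus YC, 1.04% for OC+SM minus OC and 11.3% for OC minus YC. Of 11 tested, Tfam, which packages the DNA and starts transcription, was nearest for OC+SM minus YC (0.15 ± 0.07, edgeR adjusted p = 0.0901), Mterf3 for OC+SM minus OC (0.32 ± 0.13, edgeR adjusted p = 0.185) and the initiation factor gene Tfb2m for OC minus YC (0.19 ± 0.07, edgeR adjusted p = 0.11). Of 29 genes for processing, tailing and decay of mitochondrial RNA, 4 rose between OC+SM and YC and none fell: Slirp (0.38 ± 0.09), whose product binds and stabilises mitochondrial messengers, the rRNA methyltransferase gene Nsun4 (0.24 ± 0.08), Hsd17b10 (0.19 ± 0.06), a subunit of the enzyme that cuts tRNAs at their 5' ends, and Fastk (0.20 ± 0.07). That count is near the 11.5% of all tested genes called higher. Rexo2, an exonuclease for short mitochondrial RNAs, rose between OC+SM and OC (0.27 ± 0.07, edgeR adjusted p = 0.0405). Between OC and YC the tRNA 3' processing gene Elac2 (-0.53 ± 0.14) and Fastkd1 (-0.45 ± 0.13) fell and the rRNA methyltransferase gene Mrm1 rose (0.41 ± 0.12), 3 of the 29 genes in all, near the 11.3% of all tested genes called.

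Of 20 genes that charge mitochondrial tRNAs, Fars2, for the phenylalanine enzyme, was the only one called, beside 1.04% of all tested genes for OC+SM minus OC, 11.3% for OC minus YC and 22.4% for OC+SM minus YC. It was lower for OC+SM minus OC (-0.45 ± 0.08, edgeR adjusted p = 0.0105) and higher for OC minus YC (0.27 ± 0.08, edgeR adjusted p = 0.0237). Of 16 replication and maintenance genes, the helicase-nuclease gene Dna2 fell between OC and YC (-0.66 ± 0.19, edgeR adjusted p = 0.0197) and none was called in the other comparisons. Beside the same shares of all tested genes, none of 12 translation factor and insertion genes or of 8 biogenesis regulators was called in any comparison, and the smallest adjusted p among these 2 lists was 0.0898, for Nrf1 in OC+SM minus YC (-0.20 ± 0.09, edgeR). Without OC+SM libraries 1, 2 and 3, no transcription, RNA processing, charging, replication, translation or biogenesis gene listed was called in either OC+SM comparison. In that fit 0.0565% of all tested genes were called for OC+SM minus OC and 10.5% for OC+SM minus YC.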

How the data were processed

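Libraries from the ovaries of 18 mice were made by QuantSeq, per the labels' protocols. Tools named in the submitters' processing notes are STAR 2.7.9a, RSEM 1.3.3 and FastQC 1.9, with build GRCm39. The authors deposited 1 RSEM table per library with expected counts, TPM, FPKM and gene lengths, per the file headers. The sources used here do not state the annotation or strand setting. Expected counts were whole, to a tolerance of 0.005, for 45.8% of member values and 87.4% of all values, since RSEM divides shared reads. Expected counts were rounded, and TPM served as an alternative; FPKM, also deposited, was not used.

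Genes were filtered with filterByExpr, scaled by TMM and tested with edgeR 4.0.16 (quasi-likelihood, robust) in R 4.3.3 over all 18 libraries, with Benjamini-Hochberg adjustment over 16959 genes. Alternatives used DESeq2 1.42.0 and limma 3.58.1 (log2(TPM + 1) and log2(TPM + 0.1)), other scalings and filters, left-out libraries and a replicate block. Ratios of 2 genes were tested by two-sided exact permutation (SciPy). The calling step was checked on simulated counts. Members and lists were chosen with earlier results of these data known. All protein genes, rRNAs and tested tRNAs are named, and from each nuclear list up to 4 called genes with the smallest p, or 1 not called. Coordinates and sequences are from GENCODE M21 (GRCm38), and symbols were matched by Ensembl identifier (52083 of 55416). Nuclear copies were found with blastn (at least 95% identity over 60 bases). Replicates are single mice, and no 2 libraries agreed within sampling noise.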

Additional observations from a re-analysis of the deposited data

Results flagged for a closer look

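In 6 of 117 groups examined 1 library lay far from the other 5 of its group, by its gap to the nearest library relative to the group's range. About 1 in 20 groups is expected to do so by chance. They were mt-Co1 in OC (library 2 at 1518 CPM, the next at 1365 CPM), mt-Ti in OC+SM (library 3 at 2.25 CPM, the next at 1.55), mt-Tk in OC (library 3 at 1.46 CPM, the next at 0.637), mt-Tq in OC+SM (library 4 at 23.6 CPM, the next at 18.6), mt-Tr in OC+SM (library 2 at 2.76 CPM, the next at 1.54) and mt-Tv in YC (library 2 at 4.36 CPM, the next at 2.56). All but mt-Co1 are tRNAs with few counts.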

How the results depend on the processing

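The 3 protein gene calls of OC+SM minus YC lower became 1 with no filter and 1 without OC+SM libraries 1, 2 and 3, and the 7 higher became 4 without those libraries. The 1 higher for OC minus YC became 0 with ENSMUSG00000119584 out of the library sizes and with limma at either TPM pseudocount, and 0 to 1 when 1 library was left out. For OC+SM minus OC, the 1 lower became 0 in the 12-library fit and without OC+SM libraries 1, 2 and 3, 2 with DESeq2 and 0 to 3 when 1 library was left out, and DESeq2 called 1 higher. The log2 ratio of mt-Rnr2 to mt-Rnr1 for OC+SM minus OC was 0.125 without OC+SM libraries 1, 2 and 3, and leaving out 1 library gave 0.259 to 0.355, against 0.167 to 0.263 for OC+SM minus YC and, for mt-Nd6 to mt-Nd5 in OC+SM minus OC, 0.146 to 0.266. The value of 0.125 had to be smaller, since OC+SM libraries 1, 2 and 3 held the highest ratios of their group. 

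Signs turned, none in a called value, for mt-Rnr1 (-0.027) and mt-Nd5 (-0.016) in OC minus YC and mt-Ts1 (-0.049) in OC+SM minus YC with limma, for mt-Co1 (-0.053) and mt-Nd4l (-0.040) in OC minus YC with copies added, and without OC+SM libraries 1, 2 and 3 for mt-Nd4l (0.107 and 0.204) and mt-Nd6 (0.022). With 1 library left out, values spanned 0 for mt-Rnr1 (-0.030 to 0.072) and mt-Ts1 (-0.216 to 0.057) in OC minus YC, for mt-Tq (-0.051 to 0.178), mt-Ts1 (-0.008 to 0.265) and mt-Nd4l (-0.313 to 0.005) in OC+SM minus OC and for mt-Ts1 (-0.005 to 0.083) and mt-Nd4l (-0.217 to 0.101) in OC+SM minus YC. The causes were not tested beyond these settings. Samples with one replicate number did not clearly deviate together (correlations -0.153 to 0.087), which does not exclude a pairing, such as by cage. A fit with the replicate block gave the same counts of protein gene calls (1 and 0, 0 and 1, 7 and 3 higher and lower). Depth limits the tRNAs, most of them under 10 CPM.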
